A study of Drosophila melanogaster with 4 samples.

Results

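The regions described here are the H3 clusters that lie on the 6 sequences of placed heterochromatin of the *Drosophila melanogaster* genome, 2LHet, 2RHet, 3LHet, 3RHet, XHet and YHet. A cluster is a stretch that the authors deposited as significantly enriched in chromatin immunoprecipitated with an antibody against histone H3. Members were taken by sequence name alone, and they numbered 310 of the 18424 clusters in the list of the whole series. The list of ChIP replicate 1 held 42 of its 3717 clusters there, and that of ChIP replicate 2 held 24 of 2198. The material was wild-type Oregon-R embryos of 14 to 16 h, with 2 ChIP libraries made with 1 anti-H3 antibody and 2 input libraries of chromatin DNA, each input serving the ChIP replicate of its number. All libraries shared the strain, the stage and the wild-type genotype, and the labels give neither the sex of the embryos nor whether the replicates were separate collections. Spread between the replicates may thus be technical. Whole embryos were used, so every value is an average over all tissues.

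Heterochromatin is the part of the genome that stays compact between divisions. In the fly it lies around the centromeres, fills chromosome 4 in part and the Y almost entirely, and consists mostly of satellite repeats and transposable elements. Its nucleosomes carry methylation of lysine 9 of H3, laid down by enzymes such as Su(var)3-9 and bound by HP1, and a gene moved next to it can be silenced in some cells and not in others. It is not without genes: light and rolled are essential genes that work within it, and the Y carries genes for male fertility. Placed heterochromatin sequences are assembled stretches that could be assigned to a chromosome arm but not joined to it, and they contain runs of unknown bases. An antibody to H3 itself, whatever its modification, reads where nucleosomes are recovered. Nothing in the lists measures lysine 9 methylation or HP1, so the name of these sequences could not be checked against a chromatin mark. Positions are on FlyBase release 5 and are given by sequence name, start and end. Since neither the sequence nor the genes of that release were at hand, no gene is tied to a cluster.

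H3 clusters were sparse in the placed heterochromatin in all 3 lists. The series-wide list had 33.4 clusters per Mb over the 9.28 Mb of the 6 sequences (exact 95% Poisson interval 29.8 to 37.3), against 150 per Mb on the arms of chromosomes X, 2 and 3 (147 to 152). Replicate 1 had 4.52 per Mb in heterochromatin and 30.6 on the arms, and replicate 2 had 2.59 in heterochromatin and 18.0 on the arms. The replicate means were 3.56 ± 1.37 per Mb in heterochromatin and 24.3 ± 8.88 on the arms (SD, n = 2). Every list therefore placed several times fewer clusters per Mb in heterochromatin, although the lists themselves differed widely in size. The ratio of heterochromatin to arms was 0.223 over the series as a whole (exact interval 0.199 to 0.250), 0.148 in replicate 1 (0.106 to 0.200) and 0.143 in replicate 2 (0.0916 to 0.214). Each passed an exact two-sided conditional binomial test of both counts given the lengths, with an adjusted p over the 3 lists of 1.4e-254, 2.6e-68 and 1.4e-41. As a mean of the replicates the ratio was 0.146 ± 0.0032 (SD, n = 2). This test treats each cluster as an independent count and covers counting error only.

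Covered bases gave the same picture. Clusters took up 5.01% of the heterochromatin sequence and 24.8% of the arms in the series-wide list. In replicate 1 they took up 0.729% of heterochromatin and 4.99% of the arms, and in replicate 2 they took up 0.406% of heterochromatin and 2.85% of the arms. Lengths are those of whole sequences. The part of each sequence made of unknown bases, or of repeats on which a short read cannot be placed, was not measured, and its share in the low density was not tested.

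Among sequences of a like nature, the placed heterochromatin lay near the unplaced sequence U and below the arm ends at the centromeres. U had 29.1 clusters per Mb in the series-wide list, and the ratio of heterochromatin to U was 1.15 (exact 95% interval 0.976 to 1.35). The 2 Mb of each of the 5 arms next to the centromere had 73.7 per Mb, and the ratio of heterochromatin to these ends was 0.453 (0.396 to 0.518) in the series-wide list, 0.368 (0.253 to 0.526) in replicate 1 and 0.291 (0.177 to 0.460) in replicate 2. Chromosome 4 was sparser still, at 12.6 per Mb, and the ratio of heterochromatin to chromosome 4 was 2.66 (1.63 to 4.62) in the series-wide list. In replicate 1, chromosome 4 held 3 clusters and the interval of the ratio spanned 1 (0.652 to 10.3). These intervals cover counting error only.

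**Figure D1:**
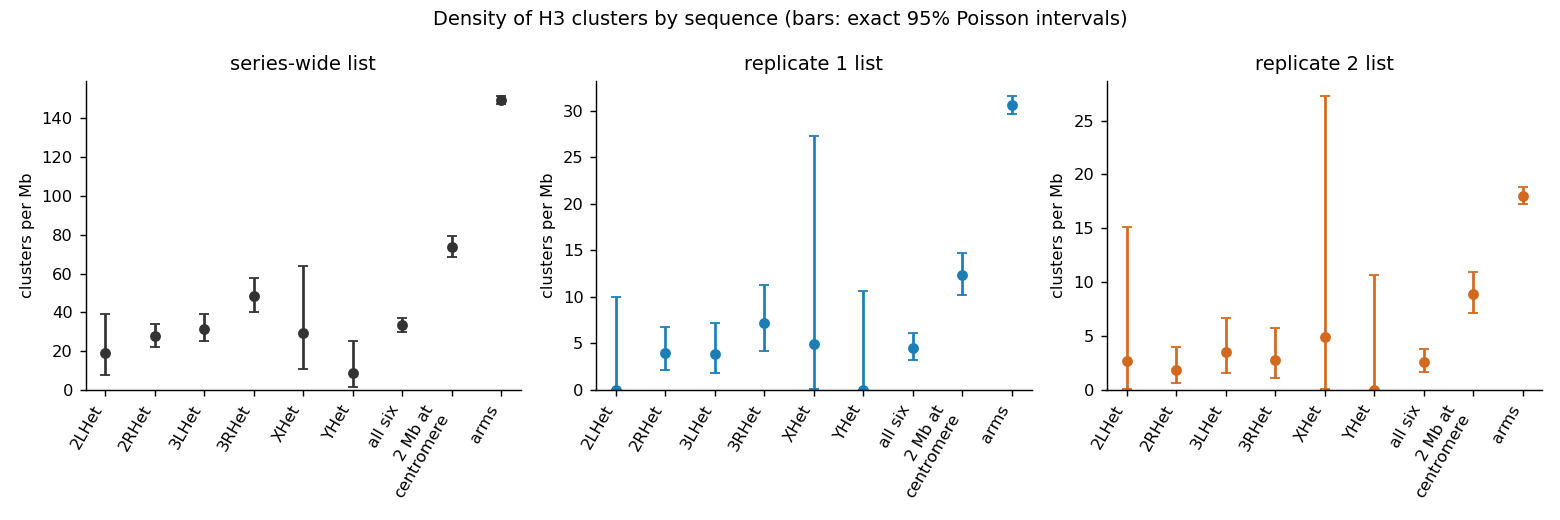
Clusters per Mb (vertical axis) on each placed heterochromatin sequence, on all 6 together, in the 2 Mb of the arms next to the centromeres and on the whole arms, with 1 panel for each list and a vertical scale of its own. Points are densities and bars are exact 95% Poisson intervals; all 6 sequences together stand at 33.4 per Mb series-wide, 4.52 in replicate 1 and 2.59 in replicate 2, and the arms at 150 per Mb series-wide, 30.6 in replicate 1 and 18.0 in replicate 2.

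The 6 sequences were not equally sparse. 3RHet held 122 clusters over 2.52 Mb, or 48.5 per Mb (exact 95% Poisson interval 40.2 to 57.9). 3LHet held 81 over 2.56 Mb, or 31.7 per Mb (25.2 to 39.4), and 2RHet held 91 over 3.29 Mb, or 27.7 per Mb (22.3 to 34.0). These 3 long sequences carried nearly all members. On the short ones there were 6 clusters in the 0.204 Mb of XHet, 7 in the 0.369 Mb of 2LHet and 3 in the 0.347 Mb of YHet. Their densities of 29.4, 19.0 and 8.64 per Mb had wide intervals, of 10.8 to 64.0, 7.63 to 39.1 and 1.78 to 25.3. Ordered by density, neighbours other than 3RHet and 3LHet had intervals that overlapped, and 3LHet, XHet, 2RHet and 2LHet could not be told apart by them.

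3RHet was denser than the other five combined, by 1.74-fold series-wide (exact 95% interval 1.38 to 2.20, adjusted p = 2.2e-05 over the 6 sequences in the exact conditional binomial test). Here too the test takes each cluster as an independent count and covers counting error only, for every sequence. On 3RHet 30 of the 122 clusters had a neighbour within 1000 bp. With such neighbours merged its ratio was 1.62 (1.26 to 2.07, adjusted p = 0.00076, exact test). The replicates did not pass on their own. Replicate 1 gave 2.02 (1.03 to 3.87, adjusted p = 0.21, exact test) with 18 clusters on 3RHet, and replicate 2 gave 1.11 (0.388 to 2.81, adjusted p = 0.98, exact test) with 7. YHet, which carries sequence of the Y chromosome, was sparser than the other five, at 0.252 times their density in the series-wide list (0.0516 to 0.742, adjusted p = 0.019, exact test). Both replicate lists held 0 clusters on YHet, for which the exact 95% Poisson interval reaches 10.6 per Mb, so they could not show whether it was sparser. With the upper 50% of clusters by score alone, the 3 clusters of YHet remained and the ratio of 0.343 missed the threshold (adjusted p = 0.11, exact test). 2RHet stood at 0.757 (0.586 to 0.971) and missed it as well (adjusted p = 0.056, exact test), and 2LHet, 3LHet and XHet had adjusted p of 0.22, 0.73 and 1.

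**Figure D2:**
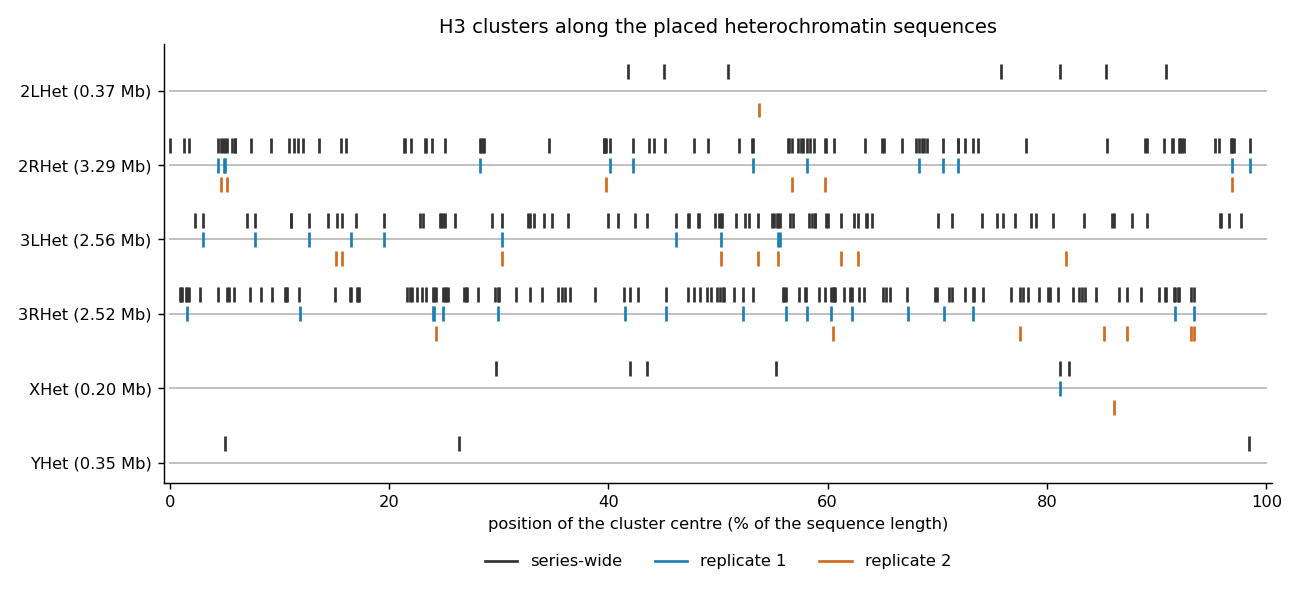
Positions of cluster centres as a percent of the length of each placed heterochromatin sequence (horizontal axis), with a row of ticks for each list (series-wide on top, then replicate 1, then replicate 2). The 3 long sequences carry clusters along most of their length, the first 41.6% of 2LHet is empty in the series-wide list, and YHet has no tick of either replicate.

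Clusters in heterochromatin were widely spaced, with long empty stretches between some of them. In the series-wide list the 304 gaps between neighbours had a median of 15451 bp (quartiles 4596 and 34554 bp), against 2771 bp on the arms (1031 and 6292 bp). The medians in the replicates were 100356 and 146754 bp in heterochromatin and 17558 and 30733 bp on the arms, in replicates 1 and 2. Neighbours within 1000 bp made up 9.21% of gaps in heterochromatin and 24.5% on the arms. Gaps of 100 kb or more numbered 13 in heterochromatin, where they took up 21.7% of the sequence, and 6 on the arms, where they took up 0.615%. U had a median gap of 19085 bp, with 6.19% of gaps within 1000 bp. Gaps of 100 kb or more took up 27.7% of U. On chromosome 4 the median was 36201 bp and they took up 71.5%, so wide spacing was not particular to the members. The SD of the gaps over their mean was 1.34 in heterochromatin, 1.43 on the arms and 1.27 on U. By this measure gaps in heterochromatin were no more uneven than those on the arms. Gaps follow from density, and no test of spacing beyond it was made.

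Spacing differed between the long sequences. 3RHet had the shortest median gap, 11493 bp, and 13.2% of its gaps were within 1000 bp. 2RHet had a median of 14214 bp but also 8 gaps of 100 kb or more, which took up 37.4% of its length. 3LHet had the longest median of these 3 sequences, 21824 bp, with 3 such gaps over 16.6% of its length, while 3RHet had 1 over 4.33%. In the 90 complete windows of 100 kb on the 6 sequences, the median was 3 clusters and 10 windows were empty (11.1%), of which 5 lay on 2RHet and 2 on YHet. None of the 1189 windows of the arms was empty, and their median was 15. The densest windows in heterochromatin held 10 clusters, both of them on 3RHet. The densest on 3LHet, 1400001-1500000, held 9.

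The longest gaps held no cluster of either replicate, but few replicate clusters could have fallen in any gap. Of the replicate clusters in heterochromatin, 40 of 42 in replicate 1 and 19 of 24 in replicate 2 overlapped a series-wide cluster. The longest gap lay on YHet between 91924 and 341102, a stretch of 249177 bp. The next 3 were on 2RHet, with 241433, 193181 and 171565 bp, and the fifth, of 168555 bp, lay on 3LHet between 2278012 and 2446568. The short sequences were also uneven at their ends. The first 153275 bp of 2LHet carried no series-wide cluster, and its 7 clusters lay between 153276 and 335510. The series-wide clusters of XHet lay between 60088 and 167974, with 60087 bp before the first. At the far end of 3RHet the last 166005 bp were empty, whereas on 2RHet the first cluster was preceded by 5 bp.

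**Figure D3:**
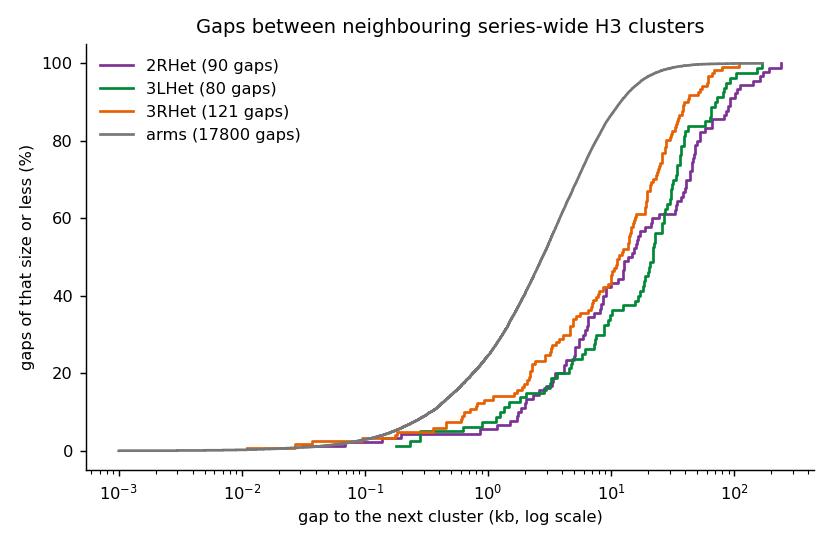
Cumulative share of gaps (vertical axis, percent) by size (horizontal axis, kb, log scale) between neighbouring series-wide clusters on 2RHet, 3LHet, 3RHet and the arms. All 3 heterochromatin curves lie right of that of the arms over most of the range, with medians of 14214, 21824 and 11493 bp against 2771 bp, and 2RHet reaches the longest gaps of the sequences drawn.

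Runs in which each neighbour lay within 10 kb took in 190 of the 310 clusters, in 66 runs. With lone clusters counted as runs, the 310 members made 186 runs and the 292 clusters of U made 199. The 17805 clusters of the arms made 2384, so such runs were not particular to heterochromatin. The largest runs held 6 clusters. One was on 2RHet and spanned 47021 bp, and another was on 3RHet 22926-44004 and spanned 21079 bp. 3RHet had 84 of its 122 clusters in 29 runs, 2RHet had 57 of 91 in 18, and 3LHet had 45 of 81 in 17. XHet had 4 of 6 in 2 runs, and on 2LHet and YHet no neighbours were that close. With a limit of 1000 bp the runs became pairs and triplets, 25 in number, of which 14 lay on 3RHet.

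Heterochromatin clusters were short in the series-wide list. Their median length was 1349 bp (quartiles 1094 and 1720 bp), against 1459 bp on the arms (1169 and 1877 bp). This was not particular to them, since the median was 1165 bp on U and 1299 bp on chromosome 4. Clusters of 2000 bp or more made up 12.3% of members (38 of 310), where 18.6% of all series-wide clusters were that long, and 7.10% lay at the shortest length in the list, 1001 bp, against 2.25% on the arms. On U 6.16% of clusters were 2000 bp or more and 18.2% had the shortest length. The replicate lists did not share the difference in the median between heterochromatin and the arms. It was -52.5 bp in replicate 1 and 8 bp in replicate 2, a mean of -22.3 ± 42.8 bp (SD, n = 2). The shortest members there were 1302 and 1311 bp long, in lists that started at 1301 bp.

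By sequence, the median length in the series-wide list was 1438 bp on 3RHet, 1421 bp on 2LHet, 1317 bp on 3LHet, 1309 bp on 2RHet, 1278 bp on XHet and 1001 bp on YHet. Clusters of 2000 bp or more were 12 of 81 on 3LHet (14.8%), 18 of 122 on 3RHet (14.8%) and 7 of 91 on 2RHet (7.69%). On 2LHet 1 of 7 was that long. The exact intervals of these shares overlapped, and each share lay below the 18.6% of all series-wide clusters. The 5 longest were 3RHet 1520250-1524124 (3875 bp), 3LHet 1407174-1410792 (3619 bp), 3LHet 772610-776196 (3587 bp), 3RHet 1041750-1045290 (3541 bp) and 3LHet 1415620-1418982 (3363 bp). Of these only 3LHet 1407174-1410792 overlapped no replicate cluster. Their scores lay between 0.32 and 0.57. The longest on 2RHet had 2673 bp and that on XHet 1701 bp.

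Scores in heterochromatin were higher and far more spread than on the arms. The score is the authors' own value. It was taken as log2 from the values alone, so a step of 1 would be a doubling of a ratio that is not named. Its median was 0.47 in heterochromatin and 0.41 on the arms in the series-wide list, 0.62 in heterochromatin and 0.55 on the arms in replicate 1, and 0.76 in heterochromatin and 0.69 on the arms in replicate 2. The difference of the medians was 0.057 in the series-wide list and averaged 0.070 ± 0.00057 over the replicates (SD, n = 2). No p is given, since clusters of 1 library are not replicates. The upper quartile differed more than the median: it was 0.61 in heterochromatin and 0.45 on the arms in the series-wide list. Replicate 1 had 0.71 in heterochromatin and 0.60 on the arms, and replicate 2 had 0.92 in heterochromatin and 0.76 on the arms.

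The counts of members lay farthest from those of the whole lists in the upper tail. Of the members, 128 of 310 (41.3%, exact 95% interval 35.8 to 47.0) lay in the top 10% of the series-wide list by score, where 10% of all clusters lie by construction. The same held for 16 of 42 members in replicate 1 (38.1%, 23.6 to 54.4) and 10 of 24 in replicate 2 (41.7%, 22.1 to 63.4), again against 10% of each list. A score of 1 or more was reached by 34 members (11.0% of 310), against 0.281% of clusters on the arms and 1.18% of the list. In the replicates it was reached by 3 of 42 members against 0.538% of the list in replicate 1, and by 3 of 24 against 1.87% of the list in replicate 2. Heterochromatin thus supplied 1.68% of series-wide clusters and 15.6% of those with a score of 1 or more. U, with 29.1 clusters per Mb, held more of the tail: 133 of its 292 clusters (45.5%) scored 1 or more, out of 218 in the list, and its median was 0.94. In the lowest 10% by score lay 5.81% of members series-wide (exact interval 3.48 to 9.02), 14.3% in replicate 1 (5.43 to 28.5) and 8.33% in replicate 2 (1.03 to 27.0).

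**Figure D4:**
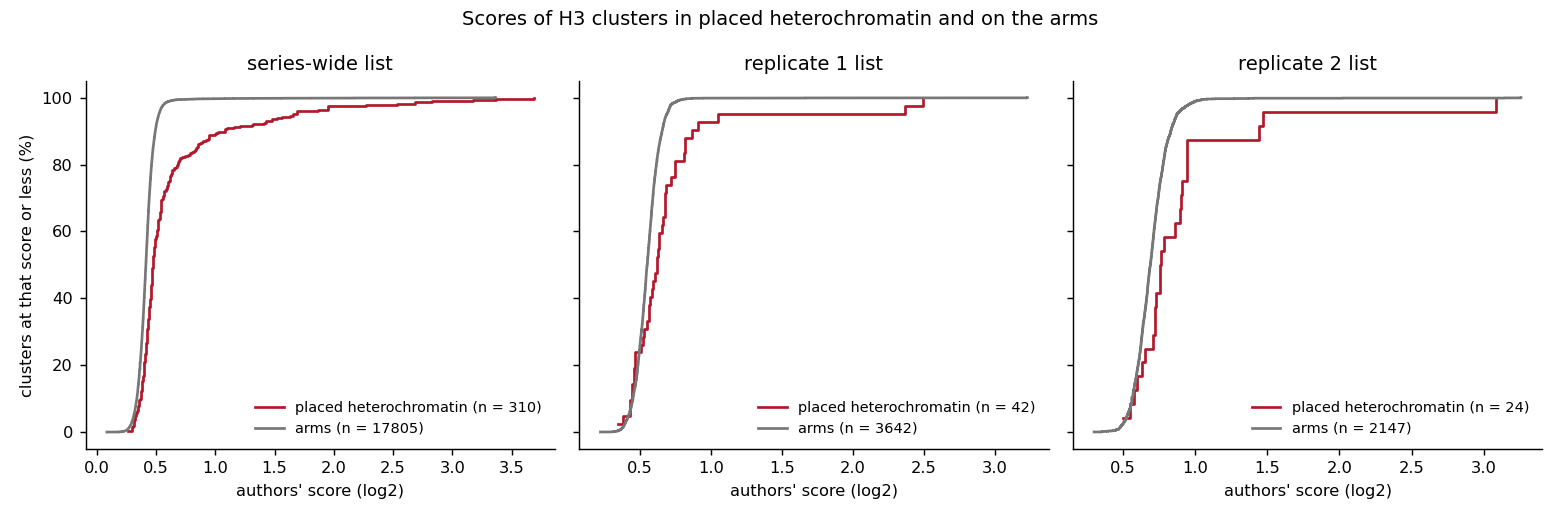
Cumulative share of clusters (vertical axis, percent) by the authors' log2 score (horizontal axis) in placed heterochromatin and on the arms, with 1 panel for each list. In each panel the upper part of the heterochromatin curve lies right of that of the arms, and the upper quartiles are 0.61 against 0.45 in the series-wide list, 0.71 against 0.60 in replicate 1 and 0.92 against 0.76 in replicate 2.

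The sequences had similar medians of score except YHet. In the series-wide list they were 0.47 on 2RHet, 3LHet and 3RHet, 0.48 on 2LHet and 0.52 on XHet. The 3 clusters of YHet, at 17114-18150, 90924-91924 and 341102-342102, scored 0.85, 1.08 and 1.08 and measured 1037, 1001 and 1001 bp. The last 2 shared their score and stood at rank 200 of the list. A score of 1 or more was reached by 10 of 91 clusters on 2RHet, 9 of 81 on 3LHet and 12 of 122 on 3RHet, so the tail was spread over the long sequences at 9.84% to 11.1% of clusters each.

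The highest scores belonged to short clusters that neither replicate list contained. The 6 highest were 3RHet 675530-676534 (score 3.69, rank 1 of the series-wide list), 3RHet 794224-795408 (3.36, rank 8), 3LHet 848036-849036 (3.17, rank 17), 3RHet 1075416-1076440 (2.82, rank 22) and, with equal scores, 2LHet 334510-335510 and 3LHet 367112-368478 (2.69, rank 28). They measured 1001 to 1367 bp, and none overlapped a replicate cluster. Equal scores share a rank: over the whole series-wide list 2 clusters held 3.69, 8 held 3.36 and 5 held 3.17. Another 6 held 2.82 and 17 held 2.69, and the highest score on U was also 3.69. The 34 members with a score of 1 or more had a median length of 1025 bp, and 2 of them overlapped a replicate cluster (5.88%). Over the whole series-wide list 16 of the 218 clusters with such a score did (7.34%). The 276 members under 1 had a median of 1396 bp, and 53 of them overlapped one (19.2%). Of all series-wide clusters under 1, 28.3% did, so the whole list shared the direction. Length and score were not separated in these shares, and of members under 1301 bp at any score 5.71% overlapped one. On the arms the 50 clusters at 1 or more had a median of 1013 bp, and 5 of these overlapped a replicate (10.0%), so short high-scored clusters were not confined to heterochromatin.

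Recurrence of members in the replicates was counted by overlap of at least 1 bp. Of the 310 series-wide members, 40 lay over a replicate 1 cluster (12.9%, exact interval 9.38 to 17.2), where 19.6% of all series-wide clusters did. Replicate 2 was overlapped by 19 (6.13%, 3.73 to 9.41), against 11.5% of all. In total 55 members overlapped at least 1 replicate (17.7%, 13.7 to 22.5), against 28.1% of all and 14.7% on U, and 255 overlapped neither. By sequence these were 22 of 122 on 3RHet (18.0%), 19 of 91 on 2RHet (20.9%), 13 of 81 on 3LHet (16.0%), 1 of 6 on XHet, and 0 of 7 on 2LHet and 0 of 3 on YHet. The series-wide list is by its name a set of the same replicates, so overlap with it is built in, and no test of it was made.

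Length went with recurrence. Among members under 1301 bp, 8 of 140 overlapped a replicate (5.71%), among those from 1301 to under 2000 bp 29 of 132 (22.0%), and among those of 2000 bp or more 18 of 38 (47.4%). The same classes gave 6.18%, 32.0% and 64.2% over all series-wide clusters. These shares were not tested against each other. Members that recurred had a median length of 1821 bp and a median score of 0.46, and those that did not had 1289 bp and 0.48. Longer clusters also overlap more by their length alone, and the replicate lists held no cluster under 1301 bp.

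Only 4 members overlapped both replicates (1.29%, exact interval 0.353 to 3.27), where 3.04% of all series-wide clusters and 1.71% of those on U did. From the replicates' side, 4 of 42 clusters of replicate 1 overlapped replicate 2 (9.52%, against 13.8% of its list), and 4 of 24 of replicate 2 overlapped replicate 1 (16.7%, against 23.2%). The intervals, 2.66 to 22.6 and 4.74 to 37.4, took in the values of the lists. Of the 4, 3 lay on 3LHet and 1 on 3RHet.

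The member with the highest score among them was 3LHet 1415620-1418982, of 3363 bp and score 0.55. Replicate 1 placed its cluster at 1415613-1417175 (score 0.68) and replicate 2 at 1415877-1417843 (0.94), with 1299 bp in common. It lay in the densest window of that sequence, in a run of 5 clusters over 21143 bp. The second, 3LHet 772610-776196, of 3587 bp and score 0.52, stood alone, with no series-wide neighbour within 10 kb, and its replicate clusters scored 0.63 and 0.73 and shared 1222 bp. The others scored below the median of the members. 3RHet 2349642-2351502 (1861 bp, 0.40) was the last cluster of its sequence. There the whole of the replicate 1 cluster lay within that of replicate 2, with scores of 0.57 and 0.72. 3LHet 1283770-1285734 (1965 bp, 0.31) ranked 17487 of 18424 by score, yet its replicate clusters, with scores of 0.43 and 0.55, shared 95.8% of the length of the first and 92.0% of the second. All 4 were thus at least 1861 bp long, and by score they ranked from 96 to 302 among the 310 members.

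**Figure D5:**
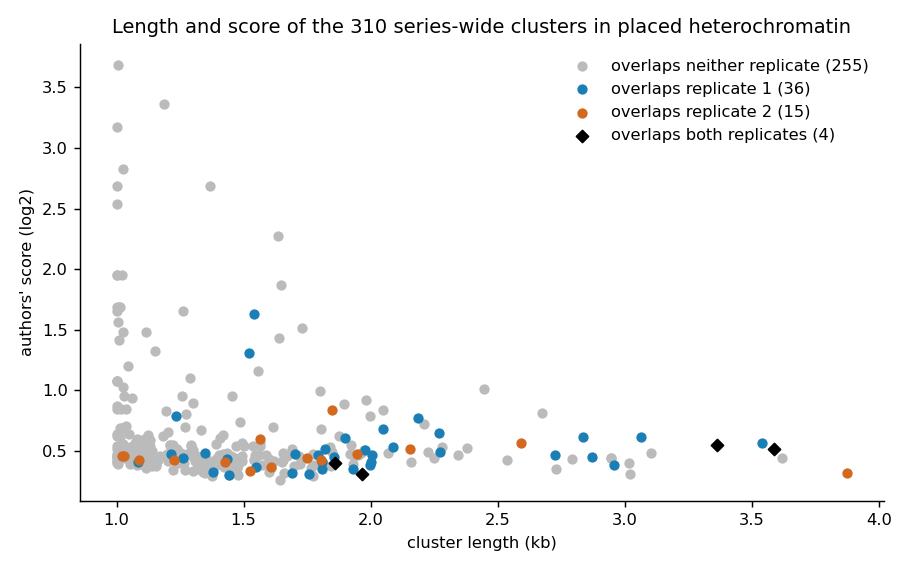
Length (horizontal axis, kb) and the authors' log2 score (vertical axis) of the 310 series-wide clusters in placed heterochromatin, with each point a cluster coloured by the replicate lists it overlaps. The 8 clusters with a score of 2 or more overlap neither replicate, and the 4 that overlap both score between 0.31 and 0.55.

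On 2RHet the replicates had no cluster in common, 13 from replicate 1 against 6 from replicate 2, but some lay side by side. Over the whole lists 13.8% of replicate 1 and 23.2% of replicate 2 clusters overlapped the other. The exact intervals for 2RHet, 0 to 24.7% and 0 to 45.9%, took in these shares. A run of 5 series-wide clusters over 28017 bp held 3 clusters of replicate 1 and 2 of replicate 2, and each of the 5 overlapped exactly 1 replicate. Along the sequence their order was replicate 1, replicate 2, replicate 1, replicate 1, replicate 2. Their replicate scores were 0.82, 0.59, 0.59, 0.81 and 0.94. Elsewhere on 2RHet a cluster of replicate 1 and one of replicate 2 lay 114 bp apart and fell into separate series-wide clusters. On 3RHet 602342-611242 there were 3 series-wide clusters, the first 2 with a replicate 1 cluster (scores 0.62 and 0.74) and the third with a replicate 2 cluster (0.78). In all, 8 runs of neighbours within 10 kb held clusters of both replicates, and 3 of these contained a member shared by both. These runs were singled out after their values were seen. Over all members, the distance from a replicate 1 cluster to the nearest of replicate 2 had a median of 61185 bp in heterochromatin and 11805 bp on the arms. From replicate 2 to replicate 1 it was 9565 bp in heterochromatin, for the 23 clusters on a sequence with any, and 5179 bp on the arms. Such distances depend on the density of the other list. In heterochromatin and on the arms this was 2.59 and 18.0 per Mb in replicate 2, and 4.52 and 30.6 in replicate 1. Whether the distances differed beyond density was not tested.

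Replicate clusters scored higher than the series-wide cluster they overlapped, in all 40 cases of replicate 1 and all 19 of replicate 2. The median difference was 0.15 in replicate 1 (range 0.033 to 1.05) and 0.29 in replicate 2 (0.15 to 0.60). On the arms 97.7% and 99.8% of replicate clusters did so, with medians of 0.12 and 0.26, so the arms shared the direction. The largest difference in replicate 1 was that of its third-ranked cluster, on 2RHet, with a score of 2.37 against 1.31 in the series-wide list. The second-ranked cluster of replicate 1, 3LHet 499512-500871, scored 2.49 against 1.63. The nearest replicate 2 cluster lay 96969 bp from it. The largest difference on the arms in replicate 1 was 0.36, below those of both clusters. In replicate 2 the largest difference was 0.60 in heterochromatin and 1.69 on the arms.

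Some replicate clusters in heterochromatin had no counterpart in the series-wide list. This was so for 5 of 24 in replicate 2 (20.8%, exact interval 7.13 to 42.2), where 4.14% of its whole list had none, and for 2 of 42 in replicate 1 (4.76%, 0.582 to 16.2), where 1.80% had none. On U it was so for 8 of 27 clusters in replicate 2 (29.6%) and 1 of 30 in replicate 1 (3.33%). The 5 in heterochromatin included 2 of the highest-scored clusters of replicate 2. 2LHet 197425-198867, of 1443 bp, scored 3.08 and ranked 6 of 2198. It was the sole replicate cluster on 2LHet and lay inside a series-wide gap of 90789 bp, 9002 bp from the nearest series-wide cluster. 3RHet 2142946-2144678 scored 1.47 and ranked 16. The others were 3LHet 387466-388919 (0.94), which lay 18 bp from a series-wide cluster, XHet 175131-176534 (0.90) and 3LHet 2087054-2088557 (0.76). In replicate 1 they were 3LHet 421197-422686 (0.43) and 3RHet 1776699-1778003 (0.46), both with low scores for that list.

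The short sequences can be given in full. On 2LHet the 7 series-wide clusters scored 0.38, 0.40 and 0.37 in a first group between 153276 and 188422, and 0.60, 0.84, 0.48 and 2.69 in a second between 279212 and 335510. None of them overlapped a replicate cluster. On XHet the 6 clusters started at 60088, 84924, 88206, 112244, 164924 and 166764 and scored 0.49, 0.43, 0.67, 0.94, 0.47 and 0.55. The cluster at 164924-166624 overlapped the one replicate 1 cluster of XHet (score 0.68), and the next series-wide cluster followed after 139 bp. The one replicate 2 cluster there lay 8646 bp from that of replicate 1. YHet had no replicate cluster.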

How the data were processed

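The deposited data were 3 lists of H3 ChIP-seq clusters, one per ChIP replicate and one for the series. The submitters' processing notes name Bowtie 0.12.7 without its role. Positions are on FlyBase release 5, per the file headers. The caller, its threshold and how the replicates were joined are unknown here. The authors deposited 1 score per cluster, called log2 here from the values alone: 99.1% to 100% of scores stood off the commonest score of their list by the base 2 logarithm of some whole-number ratio (denominators to 1000, tolerance 1e-10), and 2.05% or fewer did in other bases. The files do not say what the score compares. Start and end were both even for 100% of series-wide members and for 21.4% and 33.3% of members in replicates 1 and 2. Read depth is unknown, so the number of clusters sets the precision.

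Sequence lengths were those of the file headers. Densities were compared by an exact two-sided conditional binomial test, with Clopper-Pearson intervals at 95% and Benjamini-Hochberg adjustment over the 3 lists, or over the 6 sequences within a list. The threshold was 0.05, and the test was checked on simulated data. Medians, gaps and overlaps were described without a test. Alternatives were the upper 50% by score, merging within 1000 bp, a minimum length of 1301 bp, covered bases, 50% overlap and each replicate alone. Named clusters were the 5 highest-scored, the 5 longest, the ends of the 5 longest gaps, those overlapping both replicates, replicate clusters without a series-wide one, and all clusters of sequences with few. Other clusters were named after their values were seen. Positions on 2RHet are not listed. The members and the comparisons were chosen with earlier results of these data known. The software was matplotlib 3.10.9, pandas 2.3.3, scipy 1.17.1 and numpy 2.4.6 under Python 3.11.15.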

Additional observations from a re-analysis of the deposited data

How the results depend on the processing

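Of 73 alternatives to 13 results, 42 left direction and side of the threshold, or the value within its margin, as reported. The low density of heterochromatin against the arms held in all 6 run, at 0.143 to 0.335. The higher density of 3RHet kept its direction in all 6 but missed the threshold in each replicate alone (1.11 to 2.02). YHet gave 0.343 with the upper 50% by score, no longer past the threshold, and 0 in each replicate alone. 2RHet passed it with the upper 50% by score (0.681, adjusted p = 0.031, exact test). Results never past the threshold changed side of 1: XHet gave 1.20 with the upper 50% by score and 1.08 to 1.93 in the replicates, 2LHet 0 to 1.05 and 3LHet 0.823 to 1.58. The share of members recurring was 27.6% at the minimum length of 1301 bp, and 6.13% to 12.9% with 1 replicate. Over all series-wide clusters it was 32.0% from 1301 to under 2000 bp and 64.2% at 2000 bp or more. With 1 replicate it was 11.5% to 19.6% over all. For members the median length was 1273 bp with the upper 50% by score, 1408 bp merged and 1657 bp at the minimum length. It was 1467.5 to 1493 bp in the replicates. Its difference from the arms was -249 bp merged and ran from -52.5 to 8 bp in the replicates. In the replicates the median score was 0.62 to 0.76 and the median gap 100356 to 146754 bp. The score difference from the arms stayed positive, at 0.066 with the upper 50% by score, 0.056 merged, 0.046 at the minimum length and 0.0699 to 0.0707 in the replicates. For these changes the cause was not tested. No paired analysis was possible because the inputs have no values of their own here and enter only through the ChIP lists. The replicate values rest on 42 and 24 members.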
